A study of Mus musculus with 32 samples.

Results

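Of the 50686 genes in the raw count table of murine interscapular brown adipose tissue (iBAT), 48 carry a proteasome symbol (Psma, Psmb, Psmc, Psmd, Psme, Psmf or Psmg followed by a digit) and at least 320 counts summed over the 32 libraries, and these 48 genes are described here. The symbols matched 54 rows. Of these, 4 rows named as pseudogenes were left out by the rule. Another 2 fell below the count limit: Psma8, a testis form of an alpha subunit, had 25 counts over the 32 libraries, and Psmb11, the beta subunit of the thymus, had 0. The member nearest above the limit was Psmc3ip, with 452 counts. It encodes a protein that was named for binding a proteasome ATPase and acts in meiotic recombination, so it matches the symbols but is no subunit, which leaves 47 genes of the proteasome and its assembly. All 48 passed the filter on low counts and were tested.

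The tissue came from chow-fed male C57BL/6J mice that were 10 weeks old, with no genetic change, and each mouse gave 1 library. Tissue was taken from 4 mice at each of 8 time points, every 3 h. Time is given as Zeitgeber time (ZT) in hours: the light phase, in which mice rest, started at ZT0 and the dark phase, in which they are active, at ZT12. The mice of all groups had free access to food and were housed below thermoneutrality, a mild cold load. Total counts per library lay between 16300770 and 18254659, and levels are given as CPM, counts scaled to a common library total, after scaling with TMM factors, a correction for library composition. Lane 2 of the sequencer held ZT0, ZT3 and ZT6, lane 3 held ZT9, ZT12 and ZT15, and lane 4 the remaining 2 times, so that between lanes, lane and time of day cannot be told apart. All 8 genes of a brown adipocyte list were detected in every library, at very different levels. Ucp1, the uncoupling protein, was at 955 to 4319 CPM, Cidea at 1529 to 2132, Adipoq at 628 to 989 and Pparg at 158 to 311 CPM. Prdm16 (23.8 to 77.4 CPM), Ppargc1a (20.8 to 91.7), Dio2 (7.49 to 108) and Elovl3 (0.42 to 69.4) were lower. The summed level of 8 skeletal muscle genes ran from 2.17 to 5670 CPM between libraries, and in 6 libraries, of ZT0, ZT3, ZT12, ZT15 (2 libraries) and ZT18, it was above 3000 CPM.

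The proteasome is the protease that degrades proteins marked with ubiquitin. Its 20S core is a barrel of stacked rings. The outer rings are made of alpha subunits, which gate the entry, and the inner rings of beta subunits, of which Psmb5, Psmb6 and Psmb7 encode the catalytic ones. In cells that see interferon, these are replaced by the inducible subunits Psmb8, Psmb9 and Psmb10, which make the immunoproteasome. The 19S particle caps the barrel: ATPases in its base unfold the substrate and pull it in, and its lid removes the ubiquitin chain. Chaperones build both parts, and other caps (the PA28 proteins of Psme1, Psme2 and Psme3, and PA200 of Psme4) or the inhibitor PI31 (Psmf1) can bind the barrel. In brown fat, the transcription factor NRF1 (Nfe2l1) is known to hold up proteasome activity during cold exposure.

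The core subunits were expressed within about an order of magnitude of each other, and the inducible subunits lay below the constitutive ones. Levels between genes are compared here as mean CPM per kb of the exons of coding transcripts. Among the 7 alpha genes, the level per kb ran from 12.1 for Psma3 to 111 for Psma6, and among the 7 constitutive beta genes from 29.9 for Psmb1 to 96.2 for Psmb7. The catalytic subunits Psmb5, Psmb6 and Psmb7 reached 33.7, 91.8 and 96.2 CPM per kb. Their inducible counterparts Psmb8, Psmb9 and Psmb10 reached 14.3, 10.2 and 16.6 CPM per kb, below all 7 constitutive beta genes. The 6 ATPases of the base ran from 30.2 for Psmc2 to 48.5 for Psmc4. The 3 other base subunits lay between 28.8 (Psmd1) and 45.9 (Psmd2), and the 8 lid subunits between 24.9 (Psmd12) and 71.4 (Psmd8). The chaperones were lower, with 4.59 (Psmd9) to 7.58 (Psmd10) for those of the 19S base and 2.97 (Psmg3) to 15.4 (Psmg1) for those of the 20S core. The caps and the inhibitor spread most, from 4.68 for Psmf1 to 78.9 for Psme2b. The order within a class depends on the length used: per kb of coding transcripts Psma7 (46.6) lay above Psma2 (26.2), and per kb of all annotated exons below it (17.9 and 20.8).

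**Figure D1:**
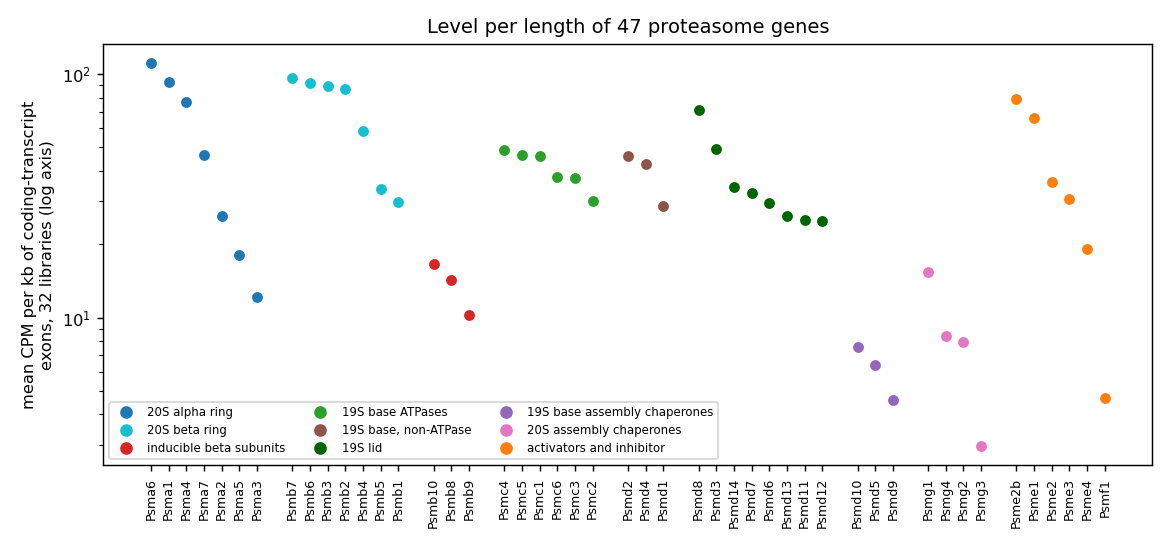
Mean level of 47 proteasome genes in CPM per kb of coding-transcript exons (log axis), 1 point per gene over 32 libraries, sorted within each class (colour). The 3 inducible beta genes lie between 10.2 and 16.6, below the constitutive beta genes, which start at 29.9, and Psmg3 is the lowest point at 2.97.

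Some members share their sequence with other rows of the table, and their levels are uncertain for that reason. Psma3 (GRCm38 chr12:70974621-70996347, plus strand) had 19193 counts, and its processed pseudogene Gm13835 (chr6:31141979-31142663) had 49208, which was 71.9% of their sum and 69.5% to 74.4% in single libraries. The copy shares an unbroken run of 662 bases with the 765 coding bases of Psma3. A stretch of 120 bases around the start of that run is shown, counted on Psma3 from its first coding base (84 to 203). Bases before the run are in capitals and those of the run in lower case. The rows were aligned without gaps, so that bases in capitals may still match elsewhere in the other gene.
Psma3: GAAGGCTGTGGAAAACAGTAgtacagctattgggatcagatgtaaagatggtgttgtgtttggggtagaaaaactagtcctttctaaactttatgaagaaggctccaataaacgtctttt
Gm13835: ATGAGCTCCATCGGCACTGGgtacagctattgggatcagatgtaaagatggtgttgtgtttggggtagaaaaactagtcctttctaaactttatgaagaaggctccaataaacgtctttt
Psme2 and Psme2b, both members, differ at 5 of 717 coding bases, and 3 of these fall in the bases 424 to 543, shown with the differing bases in capitals.
Psme2: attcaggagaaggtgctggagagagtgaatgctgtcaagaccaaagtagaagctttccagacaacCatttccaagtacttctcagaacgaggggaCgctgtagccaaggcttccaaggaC
Psme2b: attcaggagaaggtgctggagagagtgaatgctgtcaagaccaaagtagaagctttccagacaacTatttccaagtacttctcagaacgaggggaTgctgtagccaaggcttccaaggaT
Psme2 had 19585 counts and the single-exon Psme2b (chr11:48945354-48946190) 36732. Reads of such stretches could have been given to either row or left out by the authors' counting. Of 10 annotated processed pseudogenes that share stretches of 100 bases with a member, the next largest shares of the summed counts were 28.2% (Gm8394, a copy of Psma5), 22.2% (Gm12989, also of Psma5) and 17.2% (Gm3375, of Psmb5). With the copies added to their parent gene, no member gained or lost its call in the 24 h test given next (adjusted p of Psma3 0.0931 in place of 0.0695). Whether reads were counted by strand is not stated, so that reads of Psmb9 and of Tap1, which overlaps 5.8% of its exonic bases on the other strand, cannot be told apart there. The same holds for Psmc3 with Slc39a13 (8.2%), Psmd13 with Sirt3 (10.1%), Psmb7 with Nek6 (11.8%), Psmb8 with Gm20496 (14.7%), Psmd9 with Gm26745 (25.5%) and Psmc3ip with Mlx (21.2%).

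To ask which members oscillate over the day, a 24 h cosine was fitted to the counts of all 32 libraries with edgeR's quasi-likelihood test, and p-values were adjusted over all 15505 tested genes with the Benjamini-Hochberg (BH) method. Of the 48 members, 15 passed an adjusted p of 0.05, against 36.1% of all tested genes. The members that passed were mostly genes of the 19S particle and its chaperones, and their changes were small. Whether any class held an excess of them was not tested. The median fitted peak-to-trough ratio was 1.13 over the 48 members and 1.21 over all tested genes, and 1 member (Psmg3, 1.505) exceeded 1.5, against 18.0% of all tested genes. By class, 1 of 7 alpha genes, 0 of 7 constitutive beta genes, 2 of 6 base ATPases, 0 of 3 other base subunits, 5 of 8 lid genes, 2 of 3 base chaperones, 1 of 4 core chaperones, 3 of 6 caps and inhibitor and 1 of 3 inducible beta genes passed. Of the constitutive beta genes, 0 had an unadjusted p under 0.05 in edgeR, against 46.8% of all tested genes, and DESeq2 also called 0. As tissue was measured in bulk, fewer cells of a type and less RNA per cell cannot be told apart in any of these values.

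Of the 15 oscillating members, 12 peaked in the later dark phase or around lights on, between ZT18 and ZT2. Over all tested genes that passed, 36.3% peaked in those hours, a window that was chosen after the peaks were seen. The other 3, Psmf1 (peak at ZT10.1 ± 0.88 h SE), Psme1 (ZT12.9 ± 0.81) and Psmb10 (ZT13.2 ± 1.08), peaked around the onset of the dark phase. Without an assumed shape, 13 of 48 members differed between the 8 time points, against 39.8% of all tested genes. The 13 included Psmc3 and Psmd4, which missed the cosine test. The count was 7 without replicate 3 of ZT0 and 5 without the 6 libraries rich in muscle genes, where 27.7% of all tested genes passed. In that fit 10 members passed the cosine test, against 31.1% of all tested genes, and Psma2, Psmd10, Psmd11, Psmd14 and Psme4 no longer did (edgeR, adjusted p of 0.0554 to 0.122). With JTK, a rank test against cosine templates, 16 of 48 members had P under 0.05, against 41.4% of all tested genes, and 12 had an adjusted P under 0.05, against 31.5%. The members just inside the threshold of the cosine test were Psmd11 (adjusted p = 0.0396) and Psmd7 (0.0433), and those just outside were Psma3 (0.0695) and Psmd4 (0.0828), all from edgeR. With library size alone in place of TMM, Psma3 and Psmd4 passed (edgeR, adjusted p = 0.0462 and 0.0341). The call of Psmd7 was lost in 20 of 32 fits that left out 1 mouse, with DESeq2's size factors and with no filter, that of Psmd11 in 10 of 32 and with no filter, and that of Psme4 in 5 of 32 and with no filter.

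**Figure D2:**
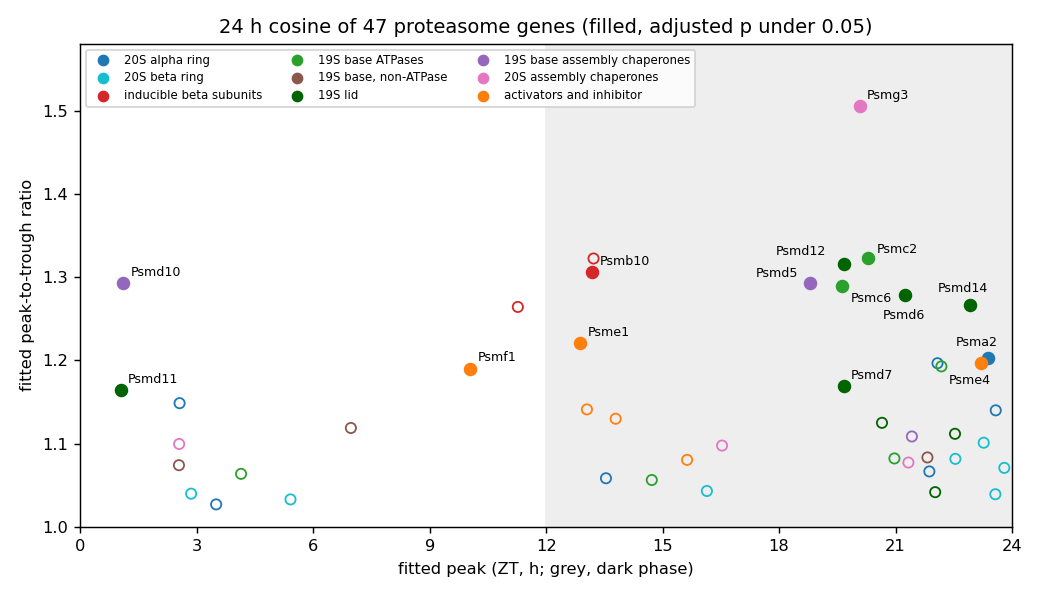
Fitted peak time (ZT in h, dark phase grey) and fitted peak-to-trough ratio of 47 proteasome genes, coloured by class, with filled points for an adjusted p under 0.05 in edgeR's test of a 24 h cosine. The filled points of the 19S particle lie between ZT18 and ZT2 with ratios of 1.16 to 1.32, and Psmf1, Psme1 and Psmb10 lie between ZT10.1 and ZT13.2.

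Psmc6, an ATPase of the 19S base (chr14:45329788-45349705, plus strand), had the lowest p of all members. Its level was 96.3, 98.9, 85.4 and 81.5 CPM in the 4 mice of ZT0, 83.0, 71.3, 70.5 and 74.9 CPM at ZT9 and 105, 107, 92.8 and 91.8 CPM at ZT18. All mice of ZT18 were above all mice of ZT9, while ZT18 and ZT0 overlapped. The mean was highest at ZT18 with 99.1 ± 7.93 CPM (SD, n = 4), 1.32 times the lowest mean at ZT9 (74.9 ± 5.69), and the cosine peaked at ZT19.6 ± 0.63 h (edgeR, adjusted p = 0.000128). Psmc2, another of the base ATPases, was at 61.4, 66.9, 64.5 and 54.5 CPM at ZT0, at 53.5, 43.0, 48.0 and 45.0 at ZT3 and at 65.5, 68.8, 56.5 and 56.5 at ZT18. Its mice of ZT3 lay below all mice of ZT0 and ZT18. The fitted peak was at ZT20.3 ± 0.69 h with a ratio of 1.32 (edgeR, adjusted p = 0.000357). Psmc3 had the least cosine shape of the class (adjusted p = 0.617) but differed between time points (adjusted p = 0.0311), with its lowest mean at ZT3.

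In the lid, Psmd12, a scaffold subunit (chr11:107479484-107504362, plus strand), was at 80.0, 79.6, 78.8 and 64.3 CPM at ZT0, at 62.9, 52.8, 56.3 and 51.7 CPM at ZT3 and at 83.1, 80.8, 74.6 and 72.4 CPM at ZT18. The mice of ZT3 were below all mice of both other times. The ratio of the highest to the lowest mean was 1.39, and the cosine peaked at ZT19.7 ± 0.78 h (edgeR, adjusted p = 0.000988). Psmd14, the deubiquitinase of the lid (chr2:61711694-61800376, plus strand), was highest at ZT0 (69.8, 62.0, 71.0 and 56.7 CPM) and lowest at ZT15 (39.6, 50.6, 49.0 and 47.2 CPM), without overlap. Its peak was fitted at ZT22.9 ± 1.08 h (edgeR, adjusted p = 0.0154). Psmd8, also of the lid, was the most even of the class, between 144 and 182 CPM in all 32 mice with a fitted ratio of 1.04 (edgeR, adjusted p = 0.470). Of the other base subunits, Psmd4, a ubiquitin receptor, had a fitted ratio of 1.12 (adjusted p = 0.0828), Psmd2 1.07 and Psmd1 1.08.

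Of the 3 chaperones of the 19S base, 2 passed. Psmd5 was at 25.5, 24.5, 23.5 and 25.6 CPM at ZT3 and at 31.9, 35.9, 30.7 and 31.4 CPM at ZT18, without overlap, with a peak at ZT18.8 ± 0.74 h and a ratio of 1.29 (edgeR, adjusted p = 0.000776). Psmd10, known as gankyrin, was at 13.0, 12.7, 14.1 and 11.4 CPM at ZT0 and at 9.72, 9.16, 8.80 and 10.0 CPM at ZT15, and its peak was fitted at ZT1.11 ± 0.96 h (edgeR, adjusted p = 0.0107). Psmd9 did not pass (adjusted p = 0.128). Among the chaperones of the 20S core, Psmg3 had the largest fitted ratio of all members, 1.505, with 3.40, 3.97, 3.28 and 2.73 CPM at ZT0 and 1.86, 3.01, 1.72 and 1.75 CPM at ZT9 (edgeR, adjusted p = 0.00496). Its groups overlapped through 1 mouse of ZT9, and with 1458 counts in all it was the lowest subunit or chaperone. Psmg1 and Psmg4 had ratios of 1.10 each and did not pass (adjusted p = 0.192 and 0.620).

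In the 20S core, Psma2, an alpha subunit, was at 90.4, 94.8, 87.9 and 74.5 CPM at ZT0 and at 57.0, 71.4, 73.7 and 71.4 CPM at ZT15, without overlap. It was the 1 alpha gene that passed (ratio 1.20, peak at ZT23.4 ± 1.07 h, edgeR, adjusted p = 0.0187). Psma7, with a ratio of 1.03, had the highest p of the ring (adjusted p = 0.880). The catalytic subunits Psmb5, Psmb6 and Psmb7 had fitted ratios of 1.08, 1.04 and 1.10, and their adjusted p-values in edgeR were 0.413, 0.584 and 0.212. Psmb1 had the highest p of the constitutive beta genes, 0.725 after adjustment. The lowest mean of Psmb5 was 27.5 ± 0.88 CPM at ZT3 and the highest 33.2 ± 3.50 CPM at ZT0 (SD, n = 4).

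Psmf1 and the PA28 gene Psme1 ran the other way. Psmf1, the inhibitor PI31 (chr2:151715812-151744186, minus strand), was at 16.4, 16.3, 16.0 and 16.0 CPM at ZT0, at 20.7, 20.7, 20.2 and 17.7 CPM at ZT9 and at 19.3, 19.5, 20.9 and 23.4 CPM at ZT12. Every mouse of ZT9 and of ZT12 was above every mouse of ZT0, and the fitted ratio was 1.19 (edgeR, adjusted p = 0.00557). Psme1 (chr14:55578123-55581529, plus strand) was at 58.0, 65.8, 58.7 and 70.5 CPM at ZT0 and at 76.7, 77.9, 73.4 and 104 CPM at ZT12, with a ratio of 1.22 (edgeR, adjusted p = 0.00183). Psme4, the gene of PA200, passed with the phase of the 19S genes (peak at ZT23.2 ± 1.18 h, ratio 1.20, adjusted p = 0.0312), and Psme2, Psme2b and Psme3 did not (adjusted p = 0.117, 0.193 and 0.188). With library size alone in place of TMM, Psme3 passed (edgeR, adjusted p = 0.019). Psmc3ip had an adjusted p of 0.603.

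**Figure D3:**
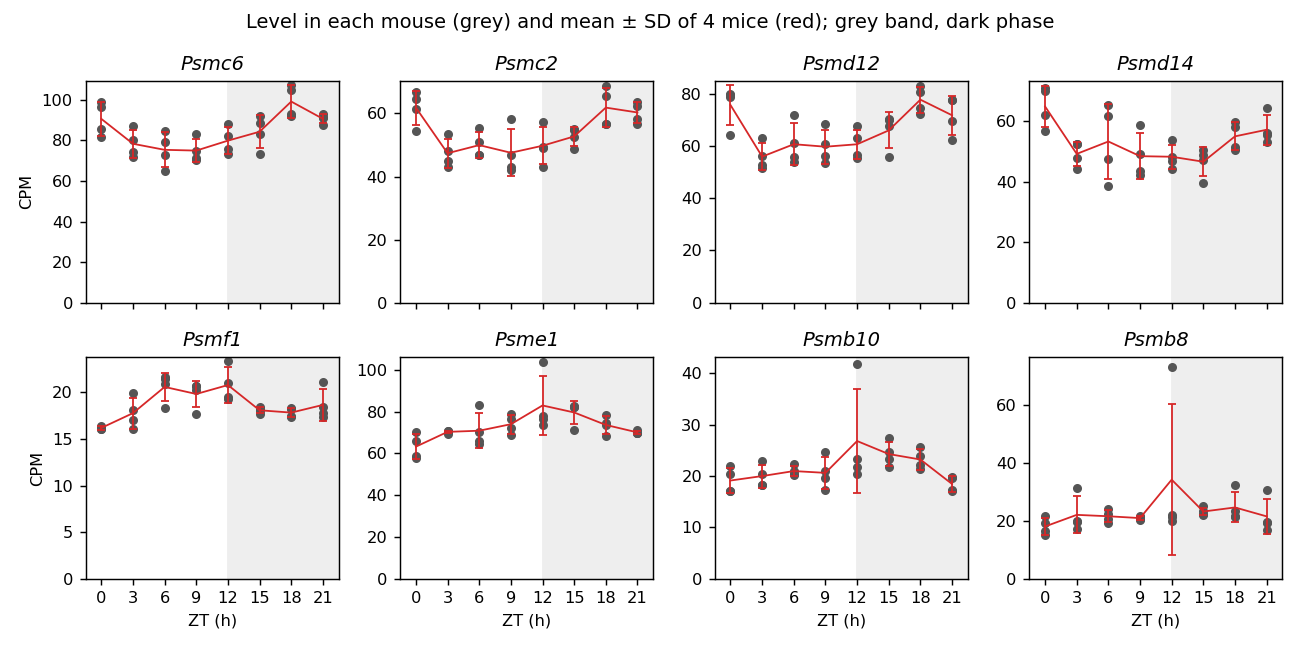
Level in CPM by ZT (h) for 8 members, with a grey point for each mouse and in red the mean ± SD of 4 mice; the axes start at 0. Psmc6, Psmc2, Psmd12 and Psmd14 are high at ZT18 to ZT0, Psmf1 is lowest at ZT0 with 16.0 to 16.4 CPM, and in Psmb10 and Psmb8 replicate 4 of ZT12 stands apart with 41.9 and 73.3 CPM.

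With lane as an additive factor in the cosine fit, 4 of 48 members passed, against 17.2% of all tested genes: Psmc6, Psmd5, Psmf1 and Psmg3 (edgeR, adjusted p = 0.0300, 0.00309, 0.00528 and 0.0170). Within lane 2, which held ZT0, ZT3 and ZT6, 5 of 48 members differed between time points, against 12.6% of all tested genes. Within lane 3 (ZT9, ZT12 and ZT15) 0 of 48 did, against 1.78%, with 2 at an unadjusted p under 0.05, against 15.6%, and within lane 4 (ZT18 and ZT21) 0 of 48, against 4.02%, with 5 at an unadjusted p under 0.05, against 19.9% (edgeR). The other 11 members with an oscillation did not pass with lane in the fit. Without replicate 2 or 3 of ZT0, 0 members passed within lane 2, and 12 passed without its replicate 4, while 2 to 3 passed without replicate 1 of ZT0, replicate 2, 3 or 4 of ZT3 or replicate 2 or 3 of ZT6. Leaving out replicate 1 of ZT15 gave 1 member within lane 3.

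The steps between neighbouring time points show when the members moved. From ZT0 to ZT3, the first 3 h of light, 43 of 48 members had a lower mean on the log2 scale, and 8 of them passed at an adjusted p of 0.05 in edgeR, against 6.60% of all tested genes called lower. No member was called higher, against 7.16%. The median log2 fold change of the members was -0.18 and that of all tested genes 0.01. All 31 core subunits of the 20S and 19S were lower, with a median of -0.20. With library size alone in place of TMM, 29 of the 31 were lower with a median of -0.14. Both times lie on 1 lane. The 5 members with a higher mean were the 3 inducible beta genes, Psmf1 and Psme1, and none of them passed (edgeR, adjusted p of the lowest 0.216).

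The 8 members that fell were 4 of the lid (Psmd6, Psmd12, Psmd14 and Psmd13), the ATPases Psmc2 and Psmc3, the chaperone Psmd5 and the catalytic subunit Psmb5, and in each of the 8 all mice of ZT3 were below all mice of ZT0. Over the whole set, the mice of both times did not overlap in 12 of 48 members and in 16.0% of all tested genes. Psmd6, a lid subunit, was at 44.5, 54.2, 58.7 and 40.7 CPM at ZT0 and at 36.5, 36.9, 36.0 and 34.6 CPM at ZT3, and fell by 0.46 ± 0.13 (SE) on the log2 scale (adjusted p = 0.0200 by edgeR). Psmd12 fell by 0.44 ± 0.10 (adjusted p = 0.00599) and Psmd14 by 0.40 ± 0.13 (adjusted p = 0.0348), both by edgeR. For Psmb5 the mice of ZT0 were at 30.9, 34.0, 37.8 and 30.0 CPM and those of ZT3 at 26.6, 27.7, 27.0 and 28.6 CPM, and it fell by 0.27 ± 0.09 (adjusted p = 0.0392 by edgeR). The count of calls depended on single mice of ZT0 and ZT3: it was 16 without replicate 4 of ZT0, 3 without replicate 3, 4 without replicate 2 and 5 without replicate 1 of ZT0, and 5, 4 and 4 without replicate 2, 3 or 4 of ZT3. Of single members, Psmd13 lost its call in 17 of 32 fits that left out 1 mouse, Psmb5 and Psmd14 in 6 each, and Psmd5 and Psmd6 in 3 each. Psmd13 and Psmb5 also lost it with library size alone and with no filter, and Psmd14 with no filter. The summed muscle genes ran from 3.21 to 4152 CPM at ZT0 and from 6.58 to 5670 CPM at ZT3. Without the 6 libraries above 3000 CPM, 1 member (Psmc3) of 48 passed, 40 had a lower mean and the median was -0.17. In that fit 5.03% of all tested genes passed in either direction, against 13.8% with all libraries. In the same step the summed leukocyte genes went from 35.7 to 57.0 CPM at ZT0 to 51.0 to 88.6 CPM at ZT3, and 3 red blood cell genes from 245 to 463 CPM to 140 to 291 CPM. Their part in the fall of the members was not tested.

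After ZT3 few members passed in a single step. From ZT3 to ZT6 the median was 0.07 and 39 of 48 members had a higher mean, with 0 called by edgeR, against 2.08% of all tested genes. There, 3 of 48 had an unadjusted p under 0.05, against 14.4% of all tested genes, and DESeq2 called 1. From ZT6 to ZT9, 0 were called (against 1.95%, with 1 at an unadjusted p under 0.05, against 14.9%, and 0 by DESeq2), and from ZT9 to ZT12 0 (against 0% of all tested genes, with 2 at an unadjusted p under 0.05, against 6.75%, and 0 by DESeq2). From ZT12 to ZT15, 36 of 48 had a lower mean, and Psmd4 was called lower, against 1.02%, while 0 were called higher, against 2.03% (DESeq2 called 1 member in all). Psmd4 was at 90.3, 84.5, 83.2 and 75.0 CPM at ZT12 and at 64.1, 72.0, 67.9 and 68.8 CPM at ZT15, without overlap, and fell by 0.29 ± 0.07 on the log2 scale (adjusted p = 0.0201 by edgeR). The call of Psmd4 was lost without replicate 1 or 2 of ZT12 or replicate 1 or 4 of ZT15, and its log2 change lay between -0.33 and -0.25 in all fits that left out 1 mouse. It was also lost without the 6 libraries rich in muscle genes (-0.24). From ZT15 to ZT18, 0 members were called (against 1.17%), and 11 of 48 had an unadjusted p under 0.05, against 14.8% of all tested genes. There, 27 of the 31 core subunits had a higher mean and the median of the 31 was 0.16. This step crosses from lane 3 to lane 4. DESeq2 called 0 members there and 0 from ZT18 to ZT21, where edgeR called 0, against 2.06%, with 2 at an unadjusted p under 0.05, against 15.0%.

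From ZT21 to ZT0, Psmg2, a chaperone of the 20S core, was called higher, against 3.50% of all tested genes, and 0 were called lower, against 4.22%. It was at 7.53, 10.7, 9.13 and 10.1 CPM at ZT21 and at 11.0, 13.4, 10.5 and 12.1 CPM at ZT0, with overlap, and the log2 fold change was 0.33 ± 0.10 (adjusted p = 0.0427 by edgeR). The call was lost when replicate 1, 2 or 4 of ZT0 or replicate 1 or 3 of ZT21 was left out.

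**Figure D4:**
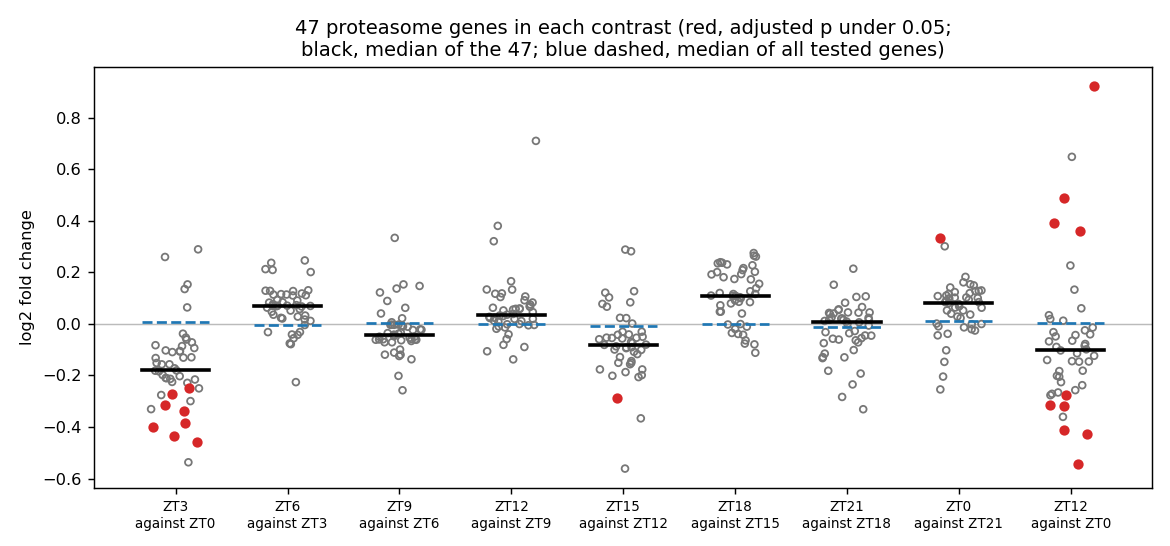
Log2 fold change of 47 proteasome genes in each 3 h step and in ZT12 against ZT0 (1 point per gene; red, adjusted p under 0.05 in edgeR), with the median of the genes in black and of all tested genes as a blue dashed line. In ZT3 against ZT0 the genes centre on -0.18 with 8 red points, all below 0, and in ZT12 against ZT0 there are 4 red points above and 6 below 0.

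ZT12, when the dark phase starts, was also set against ZT0, when the light phase starts. Of the 48 members, 4 were called higher, against 7.71% of all tested genes, and 6 lower, against 8.15%. The higher ones were Psmb8, Psmb10, Psme1 and Psmf1, and the lower ones Psmg3, Psmd14, Psmd10, Psmd12, Psmc2 and Psmd5. Psmf1 rose by a log2 fold change of 0.36 ± 0.07 (adjusted p = 0.00127) and Psme1 by 0.39 ± 0.09 (adjusted p = 0.00336), both by edgeR and without overlap of the mice. Psmd14 fell by 0.43 ± 0.13 (adjusted p = 0.0208), from 69.8, 62.0, 71.0 and 56.7 CPM to 53.7, 48.3, 46.9 and 44.1 CPM, Psmd10 by 0.41 ± 0.13 (adjusted p = 0.0295) and Psmg3 by 0.55 ± 0.19 (adjusted p = 0.0480), all by edgeR and without overlap. Of the 31 core subunits 28 had a lower mean at ZT12 (23 with library size alone). ZT0 and ZT12 were on lanes 2 and 3, so that lane and time cannot be told apart. Fitted on the 8 libraries of the 2 times alone, 2 members passed, and 2 also when replicate 1 or 3 of ZT0 or replicate 4 of ZT12 was left out of all 32. Without replicate 3 of ZT12 the count was 4, and without the 6 libraries rich in muscle genes 3. Of all tested genes, 15.9% passed in the fit of all libraries, 7.99% with the 8 libraries alone and 8.89% without those rich in muscle genes. The call of Psmg3 was lost in 21 of the 32 fits that left out 1 mouse, and also with DESeq2, with either other scaling, with no filter, with the replicate block, with the 8 libraries alone and without the libraries rich in muscle genes. The call of Psmd5 (log2 fold change -0.28) was lost in 6 of the 32, with -0.18 without replicate 1 of ZT0, and also with DESeq2 size factors, no filter, the replicate block, the 8 libraries alone and without the libraries rich in muscle genes. Those of Psmc2, Psmd10 and Psmd12 were lost in 6, 5 and 5 of the 32, with no filter, with the 8 libraries alone and without the libraries rich in muscle genes, and that of Psmd14 in 4 and without the libraries rich in muscle genes. Psme1 was not called with the 8 libraries alone. The summed level of 4 endothelial genes was 711 to 892 CPM at ZT0 and 578 to 634 CPM at ZT12, and its part in these differences was not tested.

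The inducible subunits were set apart by 1 mouse. At ZT12, Psmb8 (chr17:34197721-34201454, plus strand) was at 22.1, 21.4, 20.1 and 73.3 CPM in replicates 1 to 4, Psmb9 (chr17:34181987-34187764, minus strand) at 11.0, 11.1, 13.6 and 36.6 CPM and Psmb10 (chr8:105935735-105938444, minus strand) at 20.4, 21.7, 23.4 and 41.9 CPM. Replicate 4 held the highest value of all 32 mice for each of the 3 genes, 3.44, 2.75 and 2.00 times the median of the other 31. Its PA28 genes were also the highest of all mice (Psme1 104 CPM, 1.47 times the median of the others, Psme2 1.39 times and Psme2b 1.40 times), as was Psmf1 (1.28 times). Psme3 was at 0.981 times and Psme4 at 0.755 times the median. The core subunits of this mouse were near their means, with a median deviation of -0.06 on the log2 scale. Of 10 genes for the loading of peptides on MHC class I molecules, all 10 were highest in this mouse, among them the peptide transporter Tap1 at 58.5 CPM against 16.3 to 47.1 in the others and the MHC regulator Nlrc5 at 39.8 CPM against 13.8 to 26.4. Its summed level of 8 leukocyte genes was 81.6 CPM, the highest of ZT12 (46.1 to 81.6) but within the range of all mice (28.1 to 205 CPM), and their part in the result was not tested.

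The call of Psmb8 at ZT12 against ZT0 rests on this mouse: the log2 fold change was 0.92 ± 0.28 with it (adjusted p = 0.0258 by edgeR) and 0.23 without it, which no longer passed. That of Psmb10 went from 0.49 ± 0.15 (adjusted p = 0.0299 by edgeR) to 0.18, also no longer past the threshold. Both calls were lost as well without replicate 1 or 3 of ZT0, with log2 fold changes of 0.85 and 0.88 for Psmb8 and of 0.44 and 0.44 for Psmb10. The cosine of Psmb10 was called with all 32 mice (adjusted p = 0.0105) and in every fit that left out 1 mouse, whereas Psmb8 and Psmb9 did not pass (adjusted p = 0.106 and 0.114 by edgeR). Inducible and constitutive catalytic subunits were also compared as ratios of counts within a library, which do not depend on scaling. The ratio of Psmb8 to Psmb5 had a median of 0.701 and ran from 0.439 in replicate 3 of ZT0 to 2.56 in replicate 4 of ZT12, that of Psmb9 to Psmb6 had a median of 0.177 (0.127 to 0.495) and that of Psmb10 to Psmb7 a median of 0.183 (0.126 to 0.373), with the same mice at both ends. Between the 8 time points, the p-values of permutation tests with 100000 resamples were 0.288, 0.566 and 0.0439, and 0.431, 0.566 and 0.132 after BH adjustment over the 3 ratios, so that none passed. Without replicate 4 of ZT12 the unadjusted permutation p-values were 0.153, 0.0815 and 0.0221. Within lane 2 the exact permutation p-values were 0.0736, 0.0597 and 0.101, within lane 3 0.794, 0.993 and 0.478, and within lane 4 0.543, 0.60 and 0.114.

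Across mice of the same time point, the core subunits went up and down together. After the mean of its time point was subtracted from each value (log2 of CPM + 0.5), the mean pairwise correlation (Pearson) of the 31 core subunits over the 32 mice was 0.643, against 0.0008 over all pairs of tested genes. It was 0.588 without the 2 mice of lowest level, and 0.550, 0.769 and 0.468 within lanes 2, 3 and 4. These are descriptions over genes that share libraries and scaling. As scaling holds the mean over all pairs near 0, that value does not show how unusual 0.643 is. Within classes the mean pairwise correlation was 0.756 for the alpha ring, 0.657 for the constitutive beta genes, 0.710 for the base ATPases, 0.646 for the lid, 0.871 for the 3 inducible genes (0.654 without replicate 4 of ZT12) and 0.169 for the caps and inhibitor. With the mean of the core subunits, Psmb8, Psmb9 and Psmb10 correlated at -0.17, -0.17 and -0.37, and Psme1 at -0.38. Without replicate 4 of ZT12 these values were -0.13, -0.13, -0.44 and -0.41. Among the core subunits, Psmd8 was the least tied to the others (mean r of 0.285) and Psmc4 the most (0.749). Of the listed partner genes outside the symbol rule, the highest correlations with the core mean were those of Vcp, the ATPase that extracts ubiquitinated proteins (0.773), its cofactor Ufd1 (0.760), the shuttle factor Ubqln1 (0.754) and the 20S maturation factor Pomp (0.752). The lid subunit Sem1 and the ubiquitin receptor Adrm1 reached 0.733 and 0.693.

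The core level also differed between mice of 1 time point. The median SD among mice of a time point was 0.13 on the log2 scale over the 31 core subunits, and the median SD of the 8 time point means, each an average of 4 mice, was 0.09. By the median deviation of the 31 genes from their own means, the lowest mice were replicate 1 of ZT15 (-0.28) and replicate 3 of ZT9 (-0.24), and the highest were replicates 2 and 3 of ZT0 (both 0.21) and replicate 1 of ZT9 (0.19). ZT9 thus held both a high and a low mouse. Replicate 3 of ZT9 had 0 of the 31 genes above their mean, and it also had the highest summed leukocyte genes of all mice (205 CPM) and the highest red blood cell genes (616 CPM against 140 to 475 in the others). Replicate 1 of ZT15 had 5402 CPM of muscle genes, but replicate 3 of ZT0, among the highest mice, also had 4152 CPM. In the other libraries above 3000 CPM the core level was 0.03 (replicate 2 of ZT12), 0.01 (replicate 4 of ZT18), -0.02 (replicate 3 of ZT15) and -0.08 (replicate 2 of ZT3). Mitochondrially encoded genes took 28.2% of the counts of replicate 3 of ZT9, the highest share of all mice, and 26.7% in replicate 1 of ZT15, against 22.2% and 21.5% in replicates 2 and 3 of ZT0 and 21.8% in replicate 1 of ZT9. The 4 mice of ZT18 had the lowest shares, 18.5% to 20.7%, with core levels of 0.01 to 0.07. With these genes removed before scaling, no called gene named here lost its call. The part of the marker genes and of the mitochondrial share in the low values was not tested. At ZT3 the 4 mice lay between -0.09 and -0.05.

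**Figure D5:**
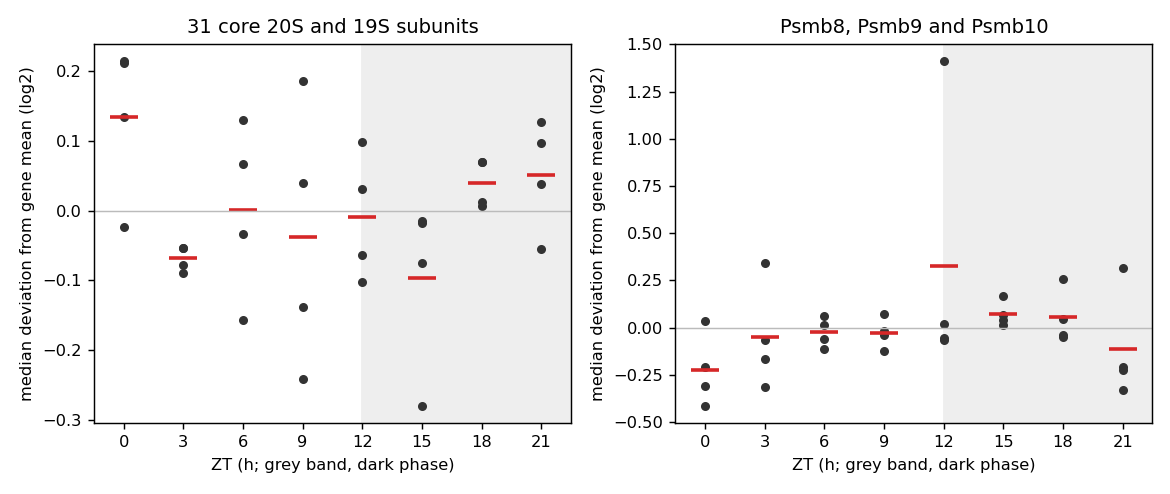
Median deviation (log2) of a group of genes from each gene's mean over 32 mice, by ZT (h, dark phase grey), with 1 point per mouse and a red bar at the mean of 4 mice; left the 31 core subunits, right Psmb8, Psmb9 and Psmb10. The core subunits spread most at ZT9, from -0.24 to 0.19, and replicate 4 of ZT12 stands at 1.41 in the right panel, where the next highest mouse lies at 0.34.

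Genes that work with the proteasome peaked at varied times. In the list of 9 genes around NRF1, 6 passed the cosine test. Nfe2l1 itself was high, from 334 to 505 CPM in single mice, and peaked at ZT12.0 with a ratio of 1.17 (edgeR, adjusted p = 0.0244), while the related factor Nfe2l2 rose from a mean of 64.3 CPM at ZT3 to 134 CPM at ZT15 (peak at ZT15.5, ratio 1.59, adjusted p = 0.000674). Syvn1 and Sel1l, of the ligase that removes NRF1 at the endoplasmic reticulum, peaked at ZT6.54 and ZT5.46 (adjusted p = 0.0139 and 0.0188), and Btrc and Fbxw7, ligase subunits that bind it, at ZT6.06 and ZT0.17 (adjusted p = 0.0484 and 0.0165). The call of Btrc was lost in 19 of 32 fits that left out 1 mouse, and with library size alone (adjusted p = 0.116 by edgeR), no filter (0.110) and the replicate block (0.0638). That of Fbxw7 was lost with library size alone (0.0720), those of Nfe2l1 and Sel1l with no filter (0.0570 and 0.0560), that of Nfe2l1 also without replicate 2 of ZT0 (0.0549) and that of Sel1l without the libraries rich in muscle genes (0.0820). With lane in the fit, those of Nfe2l1, Syvn1 and Fbxw7 were lost (0.496, 0.172 and 0.193) and those of Nfe2l2, Sel1l and Btrc were not. Ddi2, the protease that cuts NRF1, missed the cosine test (0.0596) but passed with lane in the fit (0.0129) and in the test between time points (0.00652), so that 4 of the 9 genes passed with lane. Of 9 partners without a Psm symbol, 3 passed: the deubiquitinases Usp14 (peak at ZT17.7) and Uchl5 (ZT0.55), and Akirin2, which helps to carry proteasomes into the nucleus (ZT22.1, ratio 1.24, adjusted p = 0.00832). Of 6 genes for ubiquitin and its activation, Uba6 and Rps27a passed (adjusted p = 0.000505 and 0.0151). Of 10 shuttle and unfolding factors, 5 passed (Ubqln1, Ubqln4, Ubxn1, Nsfl1c and Rad23b). Ubqln1, Nsfl1c and Rad23b peaked between ZT19.5 and ZT21.8, Ubqln4 at ZT13.5 and Ubxn1 at ZT5.93. Of the 10 MHC class I genes, Tap1 and Irf1 passed, with peaks at ZT6.35 and ZT7.94. With lane in the fit, Akirin2 and Irf1 of the genes called in these other lists still passed, and Ubb, a ubiquitin gene that missed the cosine test (0.0519), passed (0.0284), whereas Usp14, Uchl5, Uba6, Rps27a and Tap1 did not (edgeR, adjusted p = 0.0658, 0.485, 0.183, 0.155 and 0.0578), nor did any of the 10 shuttle and unfolding factors (0.0641 to 0.551 for the 5 named). The call of Usp14 was also lost in 5 of 32 fits that left out 1 mouse, with no filter (0.0735) and without the libraries rich in muscle genes (0.104), that of Uchl5 with library size alone (0.0565), and that of Rad23b in 2 of 32 fits, with no filter (0.0674) and without the libraries rich in muscle genes (0.0539). All adjusted p-values are from edgeR over all tested genes, of which 36.1% passed, and 17.2% with lane in the fit.

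To describe what stands upstream of the members, promoter sequences from RefSeq (GRCm38.p6) were found for 41 of the 48 members, in 44 windows of 250 bases before the start. The letters TGACNNNGC, the element that NRF1 and its relatives are known to bind, were looked for on both strands and stood in 11.4% of the member windows and 10.2% of all 32851 windows. CCAAT stood in 31.8% and 33.9%, the E-box CACGTG, known to be bound by clock factors, in 9.09% and 6.02%, TTATGNAA, a form of the D-box, in 0% and 3.07%, and the core of the interferon-stimulated response element (GAAA and, after any 2 bases, GAAA again) in 6.82% (none of the inducible genes) and 2.98%. TGACNNNGC was found in Psmb5, Psmb6, Psmc6, Psmd12 and Psmd9. Of these windows, 4 are shown, for 2 catalytic subunits that missed the cosine test without lane and 2 subunits of the 19S that passed it, with the match in capitals, and for Psmb10 the window with CACGTG in capitals. Each reads 5′ to 3′ on the strand of the gene and ends at the base before the start that RefSeq gives. That start lies 27, 36, 44 and 52 bases inside the GENCODE gene for Psmb5, Psmc6, Psmd12 and Psmb10, whose windows therefore overlap the gene as GENCODE draws it, and before it for Psmb6.
Psmb5 (chr14:54617996-54618245, minus strand): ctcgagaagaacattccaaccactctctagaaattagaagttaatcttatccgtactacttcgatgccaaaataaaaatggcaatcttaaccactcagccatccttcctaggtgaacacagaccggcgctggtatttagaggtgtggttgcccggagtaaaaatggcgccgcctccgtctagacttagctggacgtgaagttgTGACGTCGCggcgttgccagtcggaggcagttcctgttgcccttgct
Psmb6 (chr11:70525107-70525356, plus strand): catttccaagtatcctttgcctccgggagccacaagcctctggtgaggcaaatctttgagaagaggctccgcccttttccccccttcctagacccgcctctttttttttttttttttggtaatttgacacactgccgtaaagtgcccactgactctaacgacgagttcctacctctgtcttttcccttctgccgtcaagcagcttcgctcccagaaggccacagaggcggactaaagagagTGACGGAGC
Psmc6 (chr14:45329574-45329823, plus strand): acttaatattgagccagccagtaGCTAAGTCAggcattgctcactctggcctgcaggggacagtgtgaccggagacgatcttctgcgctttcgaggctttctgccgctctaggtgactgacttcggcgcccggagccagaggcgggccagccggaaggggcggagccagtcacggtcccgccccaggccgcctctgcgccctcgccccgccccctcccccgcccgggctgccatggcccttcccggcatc
Psmd12 (chr11:107479278-107479527, plus strand): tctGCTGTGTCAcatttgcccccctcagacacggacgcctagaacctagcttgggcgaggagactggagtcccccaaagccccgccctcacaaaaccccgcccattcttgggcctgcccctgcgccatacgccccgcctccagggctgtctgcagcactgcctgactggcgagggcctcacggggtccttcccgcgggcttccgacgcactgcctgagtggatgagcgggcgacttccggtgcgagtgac
Psmb10 (chr8:105938393-105938642, minus strand): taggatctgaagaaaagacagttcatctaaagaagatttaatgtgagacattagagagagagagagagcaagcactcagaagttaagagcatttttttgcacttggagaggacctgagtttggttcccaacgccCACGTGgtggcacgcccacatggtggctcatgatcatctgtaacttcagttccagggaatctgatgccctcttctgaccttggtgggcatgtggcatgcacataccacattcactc
In Psmb5 the match is TGACGTCGC, 47 to 39 bases before the start, and in Psmb6 TGACGGAGC, in the last 9 bases. Psmc6 and Psmd12 hold it on the other strand, 227 to 219 and 247 to 239 bases before the start. A match says nothing of binding.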

How the data were processed

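RNA from interscapular brown adipose tissue of 32 mice was sequenced by the authors as stranded paired-end libraries, 1 library per mouse. The deposited values are raw read counts per Ensembl gene, made by the authors with GSNAP and HTSeq (0.6.1) on the mouse genome mm10, and no column was pooled. The strand setting of the counting is not given in the sources used here. Symbols, lengths and coordinates came from GENCODE release M21 (GRCm38), which may differ from the annotation that was counted, and 50376 of 50686 identifiers had a symbol. The symbol Paaf1 was not matched and was not analysed here.

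Low counts were removed with filterByExpr (15505 genes left), libraries were scaled with TMM, and edgeR 4.0.16 (R 4.3.3) fitted quasi-likelihood models to all 32 libraries: a 24 h cosine, the 8 time points as a factor, the 8 steps of 3 h and ZT12 against ZT0. Calls were made at a BH-adjusted p under 0.05 over all tested genes. JTK was rebuilt in Python 3.11.15 with periods of 21 and 24 h, since the authors' tool was not at hand. All tests are two-sided. Ratios were compared as log2 of counts plus 0.5. The edgeR fits and JTK were first tested on simulated data. Total counts of 16300770 to 18254659 per library bound the precision by counting error only, and the spread between mice enters each test.

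Alternatives were other size factors, library size alone, no filter, no mitochondrially encoded genes, DESeq2 1.42.0, the replicate number as a block, lane as a factor and leaving out each mouse. Adding annotated copies to their parent and leaving out the 6 libraries above 3000 CPM of muscle genes were added after the data were seen, as was the correlation of the inducible subunits without replicate 4 of ZT12.

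The members and lists were chosen with earlier results of these data known. Genes named with values are the catalytic subunits and their inducible counterparts, in each class the 2 lowest and the highest p of the cosine test and the highest and lowest level per length, in each contrast the 3 highest and 3 lowest called members, members next to the count limit, up to 6 called genes of each partner list, and Nfe2l1. Other named genes, among them Gm13835, were chosen after their values were seen.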

Additional observations from a re-analysis of the deposited data

Results flagged for a closer look

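In 192 groups of 4 mice, formed at 8 time points from 20 members, the 3 ratios and the median deviation of the core subunits, a value was marked where its gap to the nearest other mouse exceeded Dixon's 95% limit, which chance passes in about 1 of 20 groups, and 20 values were. Replicate 4 of ZT12 held 6 of them, all high: Psmb8 at 73.3 CPM (others 20.1 to 22.1), Psmb9 at 36.6 (11.0 to 13.6), Psmb10 at 41.9 (20.4 to 23.4) and Psme1 at 104 CPM (73.4 to 77.9), the ratio of Psmb8 to Psmb5 at 2.56 (0.688 to 0.712) and that of Psmb9 to Psmb6 at 0.495 (0.144 to 0.185).

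Replicate 1 of ZT15, one of the libraries rich in muscle genes, was low in 5 genes: Psma2 at 57.0 CPM (others 71.4 to 73.7), Psmb5 at 22.8 (28.8 to 30.0), Psmb7 at 86.5 (103.8 to 106.1), Psmd5 at 26.8 (32.6 to 33.2) and Psme1 at 71.3 CPM (82.0 to 82.8).

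Replicate 3 of ZT21 was high in Psmb9 at 16.8 CPM (others 10.6 to 11.4), in the ratio of Psmb9 to Psmb6 at 0.251 (0.137 to 0.156) and in Psme1 at 71.3 CPM (69.5 to 69.8), and low in Psmd2 at 129 CPM (143.7 to 144.6). Single values were marked for Psmb6 in replicate 1 of ZT12 (76.7 CPM, others 73.4 to 73.9), Psmb7 in replicate 4 of ZT6 (99.7 CPM, others 113.7 to 116.0), Psmd12 in replicate 4 of ZT0 (64.3 CPM, others 78.8 to 80.0), Psmf1 in replicate 4 of ZT9 (17.7 CPM, others 20.2 to 20.7) and Psmg3 in replicate 2 of ZT9 (3.01 CPM, others 1.72 to 1.86).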

How the results depend on the processing

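No log2 fold change of a member called in a contrast changed sign in the alternatives run, while some smaller changes did. Peak times were not refitted. With library size alone, 29 in place of 31 core subunits had a lower mean at ZT3 against ZT0 and 23 in place of 28 at ZT12 against ZT0. The number of members past an adjusted p of 0.05 in edgeR moved by more than 1.5 times as follows, and the causes were not tested. Between the 8 time points it was 13, but 8 with no filter, 5 without the libraries rich in muscle genes and 7 to 18 with each mouse left out in turn. At ZT3 against ZT0 it was 8, but 5 with no filter, 1 without the muscle-rich libraries and 3 to 16 with a mouse left out. At ZT12 against ZT0 it was 10, but 5 with no filter, 2 with the 8 libraries alone, 3 without the muscle-rich libraries and 2 to 13 with a mouse left out. At ZT15 against ZT12 it was 1, but 2 with library size alone, 0 with no filter, 0 without the muscle-rich libraries and 0 to 1 with a mouse left out. At ZT0 against ZT21 it was 1, but 0 with library size alone, 0 with no filter and 0 to 1 with a mouse left out. At ZT6 against ZT3 DESeq2 gave 1, and leaving out replicate 1 of ZT9 gave 1 there and at ZT9 against ZT6 (0 to 1 in both). Within lane 2 the count was 0 to 12 with a mouse left out, and within lane 3 it was 1 with library size alone and 0 to 1 with a mouse left out. The cosine test gave 15 members, 4 with lane as a factor, 7 at an adjusted p under 0.01 and 12 to 17 with a mouse left out, and JTK 13 to 21. The permutation p of the ratio of Psmb10 to Psmb7 was 0.0158 to 0.0968 with a mouse left out and above 0.05 in 16 of 32 cases. With no filter, 30586 genes were tested. Of these, 15.7% passed the cosine test (36.1% with the filter) and 16.05% differed between the 8 time points (39.8% with the filter). At ZT3 against ZT0 4.56% passed (13.8% with the filter), and at ZT12 against ZT0 5.78% (15.9%). With library size alone, the calls of all genes split into 1283 higher and 610 lower at ZT3 against ZT0 (1110 and 1024 with TMM), and into 1358 and 930 at ZT12 against ZT0 (1196 and 1263). The replicate numbers name separate mice, and same-numbered mice did not deviate together (mean r -0.0333 over 112 pairs, 0.0121 for other numbers, 4 mice closest to their own number). With a replicate block 15 members passed the cosine test, 12 the time points and 9 each at ZT3 and ZT12 against ZT0. The shares of all tested genes were 34.7%, 38.4%, 13.1% and 15.4%, in the same order. Counting depth limits Psmc3ip most, with 452 counts over 32 libraries.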

Other observations

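Tap1, which overlaps Psmb9 on the other strand, and Irf1 were the genes of the MHC class I list that passed the cosine test, and Tap1 had its highest mean at ZT3 (34.3 ± 9.22 CPM, SD, n = 4) and its lowest at ZT18 (20.2 ± 2.89 CPM). Ubqln2, a shuttle factor, correlated with the core mean at -0.53 over the 32 mice after the time point means were subtracted, where its relative Ubqln1 was at 0.75, a description without a test. Of the 4 pseudogene rows left out by the rule, the largest had 32 counts over all libraries.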
